A study of Homo sapiens with 4 samples.

Results

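The transporters that carry bile acids and drugs into and out of hepatocytes were followed in the libraries of Huh7 and HepG2, established human liver tumour cell lines. The group held 10 genes of the 46427 gene numbers in the tables and was set by name. It comprised 4 uptake carriers (SLC10A1, SLCO1B1, SLCO1B3 and SLCO2B1), 5 pumps of the canalicular membrane (ABCB11, ABCB4, ABCC2, ABCB1 and ABCG2) and 1 pump of the basolateral membrane, ABCC3. Both lines were transfected for 5 h with siRNA at 20 nM, either NC-siRNA, a control (genotype WT), or COP1-siRNA against COP1 (genotype COP1 knockdown), and were collected 48 h later. All 4 conditions shared the transfection reagent, the medium and 1 batch label, and each was 1 library of poly(A) RNA. The knockdown was transient, rested on 1 siRNA, and its control siRNA came from another manufacturer. A difference between 2 libraries therefore has no replicate check.

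Hepatocytes take bile acids up from blood at the basolateral membrane and secrete them into the bile canaliculus at the opposite pole. SLC10A1 (NTCP) is the sodium-dependent bile acid carrier, and it is also the entry receptor of the hepatitis B virus. SLCO1B1, SLCO1B3 and SLCO2B1 (OATP1B1, OATP1B3 and OATP2B1) exchange organic anions such as statins, bilirubin conjugates and bile acids without sodium. On the canalicular side, ABCB11 (BSEP) exports bile salts, ABCB4 (MDR3) moves phosphatidylcholine into bile, ABCC2 (MRP2) exports conjugated bilirubin and glutathione conjugates, and ABCB1 (P-glycoprotein) and ABCG2 (BCRP) expel many drugs. ABCC3 (MRP3) returns conjugates from the cell to the blood. In normal liver the bile acid receptor FXR, encoded by NR1H4, is a known activator of ABCB11 through inverted repeats of its half-site.

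The promoters of SLCO1B1, SLCO1B3 and ABCB11 are shown because these 3 genes had measurable RNA in the Huh7 libraries and were at or next to 0 in the HepG2 libraries. Each run holds the 250 bases before the RefSeq start, 5′ to 3′ on the gene's strand, from RefSeq on GRCh38.p14. In the SLCO1B1 promoter (chr12:21130944-21131193, plus strand) and the SLCO1B3 promoter (chr12:20810455-20810704, plus strand) capitals mark the 36 aligned bases at which these neighbouring, related genes differ. In the ABCB11 promoter (chr2:169031325-169031574, minus strand) capitals mark an inverted repeat, the half-site GGNNCA followed by 1 base and its own reverse complement.

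SLCO1B1: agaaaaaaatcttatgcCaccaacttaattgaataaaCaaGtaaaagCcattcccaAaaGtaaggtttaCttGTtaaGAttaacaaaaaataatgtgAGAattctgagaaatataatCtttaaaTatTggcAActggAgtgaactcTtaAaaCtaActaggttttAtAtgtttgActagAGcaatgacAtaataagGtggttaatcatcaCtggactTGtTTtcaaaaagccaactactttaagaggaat
SLCO1B3: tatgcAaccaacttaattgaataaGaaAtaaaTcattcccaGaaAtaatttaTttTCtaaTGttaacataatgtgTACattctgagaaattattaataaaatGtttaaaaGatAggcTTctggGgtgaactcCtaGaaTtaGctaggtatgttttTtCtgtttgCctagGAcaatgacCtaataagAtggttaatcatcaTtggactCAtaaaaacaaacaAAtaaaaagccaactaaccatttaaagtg
ABCB11: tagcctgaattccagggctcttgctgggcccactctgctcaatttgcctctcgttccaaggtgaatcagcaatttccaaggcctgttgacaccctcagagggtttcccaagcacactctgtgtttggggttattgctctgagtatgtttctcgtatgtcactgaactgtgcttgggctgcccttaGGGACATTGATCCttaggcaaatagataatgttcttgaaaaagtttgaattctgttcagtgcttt

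The promoters of the neighbouring genes SLCO1B1 and SLCO1B3 were identical at 187 of 223 aligned bases (83.9%). The inverted repeat of ABCB11, which reads as the same pattern on both strands, began 65 bases before its RefSeq start (169031324) and was present in 130 of 27305 promoters of this length (0.476%). Of the 8 transporters with an entry, no other promoter held it in this window. Other forms of the half-site were not searched, so this share and the absence hold for these letters only. The deposited tables place the 5′ end of ABCB11 further out, at 169031396, so that the repeat lies inside the gene as the tables define it. A match describes the letters only and not binding.

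COP1, the target of the siRNA, was at 19.7 and 6.18 TPM in Huh7 with NC-siRNA and COP1-siRNA and at 26.9 and 16.1 TPM in HepG2, so that 31.4% and 59.9% of its TPM were left. TPM is the RNA level per length, scaled to a fixed total per library, and is meant for comparing genes of 1 library. For some genes it departed from the read coverage, as given below. All 8 hepatocyte markers listed (ALB, APOA1, APOB, TTR, SERPINA1, TF, FGB and AFP) were above 1 TPM in every library, with a summed TPM of 18100 to 20200 in Huh7 and of 2660 to 3070 in HepG2. Of 8 markers of other cells, 4 passed 1 TPM in each Huh7 library and 5 in each HepG2 library. Their summed TPM was 290 and 290 in Huh7 and 98.0 and 129 in HepG2. The highest was KRT19, of bile duct, at 200 and 207 TPM in Huh7 and 53.2 and 76.1 TPM in HepG2. SOX9, also of bile duct, was at 27.1 and 19.0 TPM in Huh7 and 15.6 and 17.6 TPM in HepG2. The stellate cell markers went the other way. ACTA2 was at 0 in both Huh7 libraries and at 11.1 and 15.4 TPM in HepG2. COL1A1 was at 0.0509 and 0.0853 TPM in Huh7 and 2.33 and 2.47 TPM in HepG2. The blood cell marker PTPRC was at 0 throughout. CD68, also a blood cell marker, was at 58.2 and 56.4 TPM in Huh7 and 15.6 and 17.3 TPM in HepG2. Of the endothelial markers, PECAM1 was at 5.08 and 7.36 TPM in Huh7 and 0.0215 and 0.135 TPM in HepG2. VWF was at 0 in Huh7 and at 0.0880 and 0.0817 TPM in HepG2. At least 1 marker went against the line labels. HepG2 cells are known for very little CD81, an entry factor of the hepatitis C virus, yet CD81, examined after its values were seen, stood at 286 and 301 TPM in the libraries labelled HepG2 and at 25.4 and 24.2 TPM in those labelled Huh7. The names Huh7 and HepG2 are used below for the libraries as labelled, and the identity of the lines was not tested. Comparisons of the siRNAs within a line do not depend on which line it is.

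The uptake carriers were low, each at most 4.08 TPM in any library. SLC10A1 (gene 6554, chromosome 14, 69775416 to 69797241, minus strand) was listed at 0 in all 4 libraries. SLCO1B1 (gene 10599, chromosome 12, 21131194 to 21239796, plus strand) had 0.937 TPM in the NC-siRNA library and 1.49 TPM in the COP1-siRNA library of Huh7, and it was listed at 0 in both HepG2 libraries. SLCO1B3 (gene 28234, chromosome 12, 20810705 to 20916911, plus strand) was at 3.33 and 2.71 TPM in Huh7 and was likewise listed at 0 in both HepG2 libraries. The liver OATP1B pair was thus present in the libraries of 1 line, at levels among the lowest of the genes expressed there. SLCO2B1 (gene 11309, chromosome 11, 75151107 to 75206549, plus strand), an OATP found in many tissues, was the one uptake carrier measured in all 4 libraries. Its level was 3.21 and 4.08 TPM in Huh7 with NC-siRNA and COP1-siRNA and 1.11 and 2.26 TPM in HepG2. Both Huh7 values of SLCO2B1 lay above both HepG2 values. Together the 4 carriers reached 7.48 and 8.27 TPM in Huh7 and 1.11 and 2.26 TPM in HepG2.

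Among the canalicular pumps, ABCC2 and ABCB1 led in every library. ABCC2 (gene 1244, chromosome 10, 99782602 to 99853741, plus strand) was at 17.6 and 20.6 TPM in Huh7 with NC-siRNA and COP1-siRNA and at 12.7 and 17.6 TPM in HepG2. It was first of the 10 transporters in all 4 libraries, and 45.4% to 56.6% of the genes with at least 1 TPM lay below it. ABCB1 (gene 5243, chromosome 7, 87503017 to 87713323, minus strand) was second throughout, with 13.4 and 12.0 TPM in Huh7 and 8.77 and 10.9 TPM in HepG2. The level of ABCG2 (gene 9429, chromosome 4, 88090264 to 88231626, minus strand) was 10.6 and 9.23 TPM in Huh7 and 2.85 and 4.48 TPM in HepG2. For ABCB1 and ABCG2 both Huh7 values lay above both HepG2 values. For ABCC2 the lower Huh7 value and the higher HepG2 value were both 17.6 TPM after rounding.

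The pumps for the main constituents of bile were low. ABCB11 (gene 8647, chromosome 2, 168915468 to 169031396, minus strand), the bile salt pump, was at 0.945 and 1.29 TPM in Huh7 with NC-siRNA and COP1-siRNA. In HepG2 it was listed at 0 with NC-siRNA and at 0.00933 TPM with COP1-siRNA, where the mean coverage was 0.0238 reads per base. ABCB4 (gene 5244, chromosome 7, 87398988 to 87476722, minus strand), the phospholipid pump, was at 1.57 and 1.82 TPM in Huh7 and at 1.34 and 1.03 TPM in HepG2. Both Huh7 values of ABCB4 lay above both HepG2 values by a small margin. On the basolateral side ABCC3 (gene 8714, chromosome 17, 50634881 to 50692253, plus strand) was at 4.60 and 4.27 TPM in Huh7 and at 4.0 and 6.40 TPM in HepG2. Both Huh7 values of ABCC3 lay between the HepG2 values. All 5 canalicular pumps together reached 44.2 and 44.9 TPM in Huh7 and 25.6 and 34.0 TPM in HepG2, several times the summed uptake carriers in each library.

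**Figure D1:**
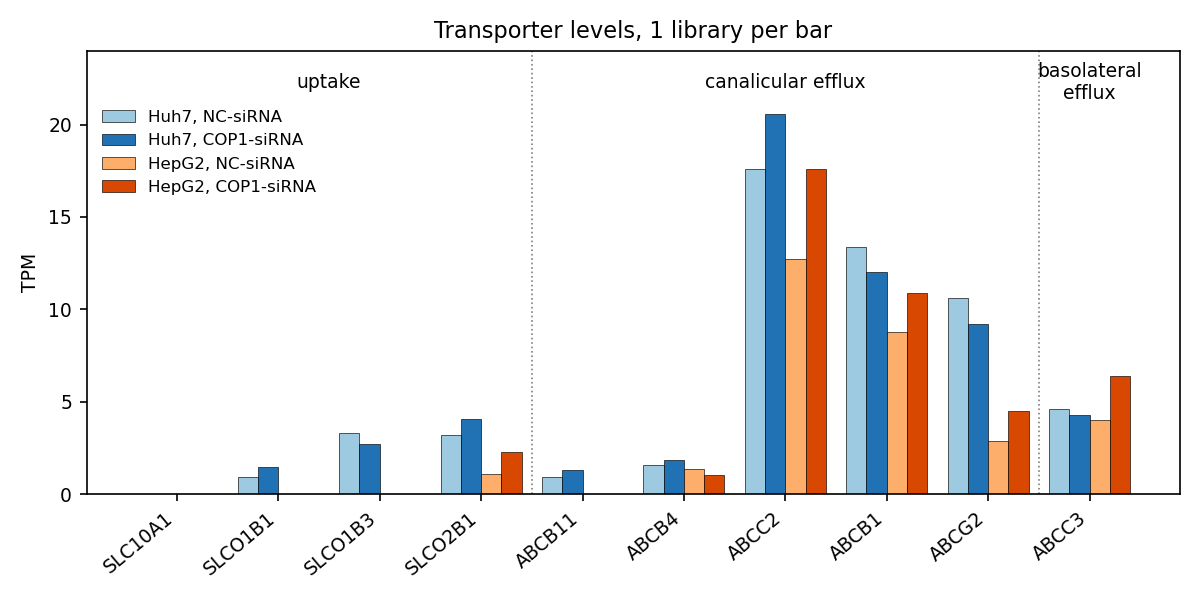
TPM of the 10 transporters in the 4 libraries, 1 bar per library, grouped by role. ABCC2 and ABCB1 are the 2 highest in every library, SLC10A1 is at 0 throughout, and SLCO1B1 and SLCO1B3 have bars in Huh7 only.

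The tables also give the mean read coverage of each gene, and the ratio of coverage to TPM differed between genes. Coverage was divided by the library's median coverage per TPM, so that a typical gene has a ratio of 1. The ratio of this scaled coverage to TPM was 0.824 to 0.898 for ABCC2, 1.08 for ABCB1 in all 4 libraries and 0.956 to 1.13 for ABCC3. SLCO1B3 and ABCG2 departed from it. For SLCO1B3 the ratio was 0.0953 and 0.102 in Huh7, and for ABCG2 it was 0.173 to 0.191 in the 4 libraries. Of the 9 transporters with any RNA, these 2 were below 0.25 in each library where they were detected, as were 10.7% to 11.1% of all genes with at least 1 TPM. SLCO2B1 was at 0.495 to 0.526. COP1 and CD81, read above by TPM, were also low, at 0.175 to 0.184 and 0.122 to 0.123 in the 4 libraries.

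The order of the transporters depended on which column was read. In Huh7 with NC-siRNA, SLCO1B3 was above SLCO1B1 by TPM (3.33 against 0.937) but below it by scaled coverage (0.318 against 1.12), and the same exchange held with COP1-siRNA (2.71 against 1.49 TPM, and 0.275 against 1.78 by scaled coverage). SLCO1B3 went from rank 5 by TPM to rank 9 by coverage in the NC-siRNA library. ABCG2 in the same library went from 10.6 TPM to a scaled coverage of 1.88, and from rank 3 to rank 4 behind ABCC3. In Huh7 with COP1-siRNA ABCG2 went from rank 3 to rank 6. In HepG2 it went from rank 4 to rank 6 with NC-siRNA and to rank 5 with COP1-siRNA. ABCC2 and ABCB1 kept ranks 1 and 2 under both columns in all 4 libraries. The tables give 1 value per gene and do not separate transcripts.

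**Figure D2:**
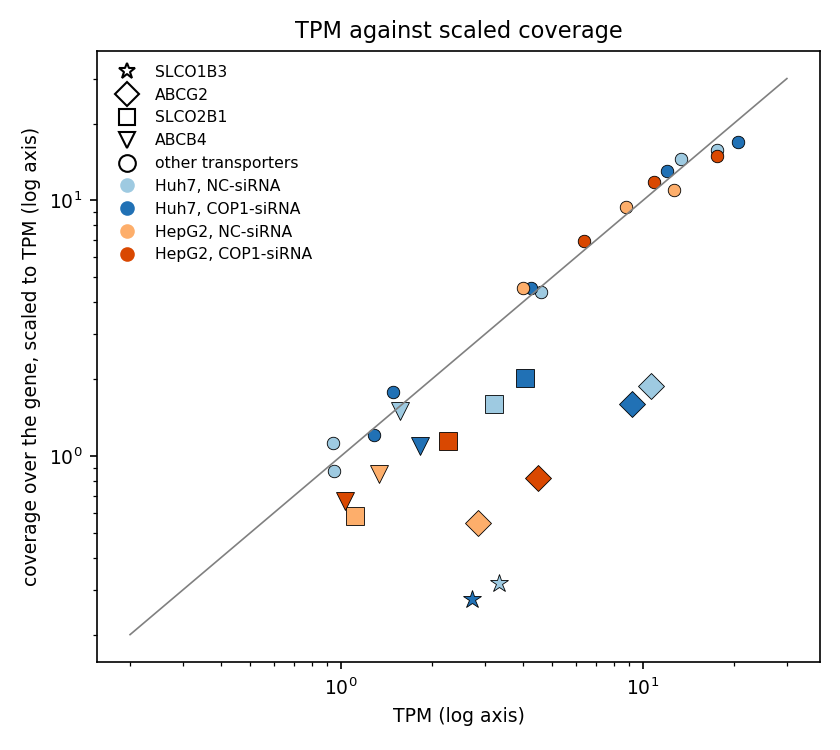
Scaled coverage against TPM, both on log axes, for each transporter with at least 0.1 TPM in a library, with colour for the library, own shapes for SLCO1B3, ABCG2, SLCO2B1 and ABCB4, circles for the rest and a grey line at equal values. ABCC2, ABCB1 and ABCC3 lie along the line, while SLCO1B3 and ABCG2 lie far below it.

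Reads of related genes could be confused where their transcripts are identical. SLCO1B3 shared 67.4% of its 50-base windows with the GENCODE gene AC011604.2, a read-through with SLCO1B7, and the read-through gene that overlaps it in the tables, SLCO1B3-SLCO1B7, was listed at 0 in all 4 libraries. SLCO1B1 shared 9.27% of its windows with the GENCODE gene AC022335.1 and none with SLCO1B3. The neighbours ABCB1 and ABCB4 shared 119 windows (2.52% of ABCB1 and 2.82% of ABCB4). No window of SLCO2B1, ABCC2, ABCC3, ABCG2 or SLC10A1 occurred in another gene. ABCB11 shared 2.02% of its windows with scattered transcripts of other genes. ABCB1 overlaps RUNDC3B on the opposite strand, which was at 0.0984 and 0.127 TPM in Huh7 and at 4.14 and 4.65 TPM in HepG2, and ABCB4 overlaps CROT at its end in the same way.

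Differences between the lines were tested with limma on log2(TPM + 1), with the line and the siRNA as terms, so that the 2 libraries of a line stood in for replicates. The test therefore compares these cultures of the lines, and its error starts from how far the siRNA difference varied between them. limma pooled this error across genes, with 4.84 degrees of freedom from all genes against 1 from the gene itself. The standard error of a gene thus rests mostly on other genes and can be smaller than its own spread. Of 15486 genes tested, 27.3% were called lower and 51.2% higher in HepG2 at an adjusted p under 0.05. The median difference of all genes was 0.36 toward HepG2, and median-of-ratios scaling brought it to 0.05, with 37.0% lower and 39.7% higher. Of the 9 transporters tested, 6 were lower in HepG2 and 0 were higher. SLCO1B1, SLCO1B3 and ABCB11 had at least 1 TPM in Huh7 only and so had to differ once they entered the test. Of the 6 transporters with at least 1 TPM in both lines, 3 were called lower, against 27.7% of the 11970 such genes.

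ABCG2 had the largest difference of these 6, with HepG2 lower by a log2(TPM + 1) difference of −1.25 ± 0.19 (SE, 2 libraries per line, adjusted p = 0.00125), or −1.60 against the median of all genes. Its difference was −0.71 with coverage in place of TPM (adjusted p = 0.0119). SLCO2B1 followed with −0.82 ± 0.16 (adjusted p = 0.00376). ABCC2 was lower by a log2 difference of −0.33 ± 0.11 (adjusted p = 0.0324), but this call was lost with coverage in place of TPM (adjusted p = 0.0672), with no minimum TPM (adjusted p = 0.0704) and without the trend in limma (adjusted p = 0.0526). ABCB1 and ABCB4 did not pass, with −0.34 ± 0.14 (adjusted p = 0.0658) and −0.30 ± 0.17 (adjusted p = 0.141). Median-of-ratios scaling gave −0.65 for ABCB1 (adjusted p = 0.00540) and −0.50 for ABCB4 (adjusted p = 0.0311), so both were called under that scaling. ABCC3 was at 0.16 ± 0.18 (adjusted p = 0.445) and changed sign to −0.11 under that scaling, without being called in either. For SLCO1B1, SLCO1B3 and ABCB11 no p-value or fold is given, because they entered the test through Huh7 only and HepG2 was at or next to 0.

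**Figure D3:**
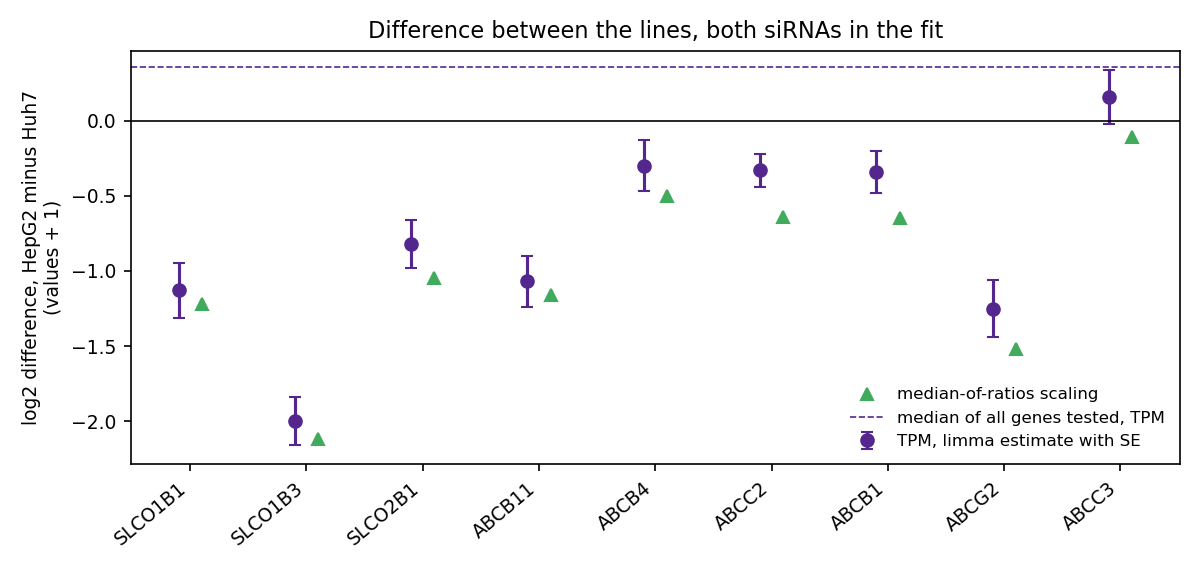
Difference of HepG2 minus Huh7 on the log2 scale for the 9 transporters tested, as the limma estimate with its standard error (circles, TPM) and under median-of-ratios scaling (triangles); the dashed line is the median of all genes by TPM. All circles but that of ABCC3 lie below 0, and the triangles lie below the circles for every gene. SLCO1B1, SLCO1B3 and ABCB11 entered the test through Huh7 only, so their place below 0 was fixed in advance.

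The siRNA comparison asked whether lowering COP1, a ubiquitin ligase, moved the transporters. No transporter passed 2-fold in either line on the log2(TPM + 1) scale. COP1 itself passed this threshold in Huh7 (−1.53) but not in HepG2 (−0.71). Over all genes, 0.638% of 13000 in Huh7 passed 2-fold upward and 0.446% downward, and in HepG2 0.540% of 14456 passed upward and 0.394% downward. In Huh7 the log2 changes of the 9 transporters tested ran from −0.23 to 0.36 with a median of 0.13, and 5 lay above 0. In HepG2 the 6 tested ran from −0.20 to 0.63 with a median of 0.47, and 5 lay above 0. The median of all genes was −0.001 in Huh7 and −0.008 in HepG2.

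SLCO2B1 had the largest change in HepG2 by TPM, and ABCC3 by scaled coverage, with 0.51. Its TPM was 1.11 with the control and 2.26 after COP1-siRNA, a log2 change of 0.63 that 3.65% of all tested genes reached in either direction. Its plain TPM ratio was 2.03, past 2-fold, while scaled coverage gave 0.44 on the log2 scale. ABCC3 went from 4.0 to 6.40 TPM in HepG2 (log2 change 0.57), ABCG2 from 2.85 to 4.48 TPM (0.51) and ABCC2 from 12.7 to 17.6 TPM (0.44). At least as large a change was found in 4.81%, 6.50% and 8.78% of all tested genes. For ABCG2 the scaled coverage gave 0.24. ABCB1 was at 0.29 and ABCB4 at −0.20 in this line.

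In Huh7 the values of these 4 genes were closer to 0. SLCO1B1 had the largest change, 0.36 on the log2 scale for 0.937 to 1.49 TPM, a size that 16.6% of all tested genes reached. SLCO2B1 was at 0.27, ABCB11 at 0.24, ABCC2 at 0.21 and ABCB4 at 0.13. SLCO1B3 was at −0.23, ABCG2 at −0.18, ABCB1 at −0.15 and ABCC3 at −0.09. With scaled coverage ABCB4 went to −0.26, ABCC3 to 0.04 and SLCO1B3 to −0.05. Of the 6 transporters tested in both lines, SLCO2B1 and ABCC2 were above 0 in both. All 8 hepatocyte markers lay above 0 in HepG2, with a median of 0.41 and FGB, a fibrinogen chain, past 2-fold (1.05, from 6.97 to 15.5 TPM), and 1 of 8 did in Huh7, with a median of −0.09. The markers of other cells lay above 0 for 5 of 5 tested in HepG2, with a median of 0.16, and for 2 of 4 in Huh7, with a median of 0.00. The part of these marker values in the transporter values was not tested.

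**Figure D4:**
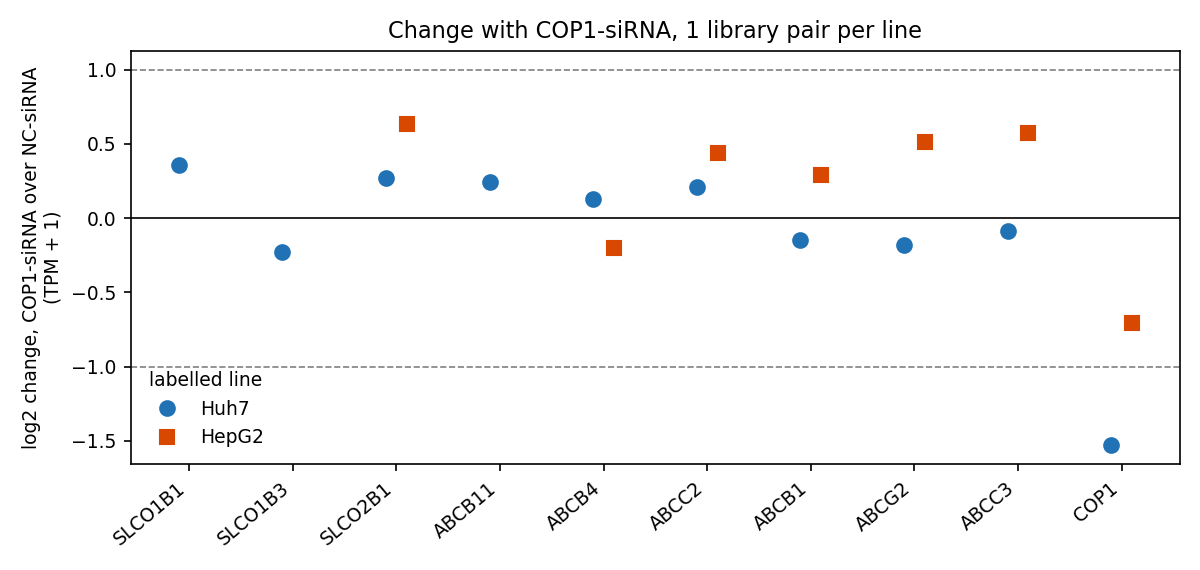
Log2 change of TPM + 1 with COP1-siRNA for the 9 transporters with any tested value and for COP1, 1 point per line (circles Huh7, squares HepG2); dashed lines mark 2-fold. All transporters lie inside the dashed lines, and 5 of the 6 HepG2 points lie above 0.

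Over both lines, with the line kept as a block, limma called 0 of 15486 genes (0%) at an adjusted p under 0.05, and the smallest adjusted p of any gene was 0.0775. COP1 itself, with an estimate of −1.12 ± 0.20, had an adjusted p of 0.184, so that the knockdown itself was not called either. Other settings called 135 genes with FPKM in place of TPM, 10 with a minimum TPM of 5 and 6 with median-of-ratios scaling, and 0 of the transporters in each. At an unadjusted threshold of 0.05 it counted 1670 genes (10.8%), and 2 of the 9 transporters were among them. These were SLCO2B1, with a log2 estimate of 0.45 ± 0.16 (adjusted p = 0.397), and ABCC2, with 0.33 ± 0.11 (adjusted p = 0.377). The other 7 estimates lay between −0.11 and 0.24. SLCO2B1 and ABCC2 were higher with COP1-siRNA in 2 of 2 lines. That is no further evidence, because the error of this fit is built from how far the siRNA change differed between the lines, pooled across genes.

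Other transporters, and the genes known to regulate or anchor them, were read from further lists against the shares of all genes given above, 27.3% lower and 51.2% higher in HepG2. Genes with at least 1 TPM in 1 line only had to differ here too, and among the 11970 genes with at least 1 TPM in both lines 27.7% were lower and 47.1% higher. Of 12 further uptake carriers, 7 were tested, with 3 lower and 3 higher in HepG2 and a median of −0.04 against 0.36 for all genes. With at least 1 TPM in both lines there were 3, of which 1 was lower and 1 higher. SLC22A9 (OAT7), an organic anion carrier of liver, was at 62.2 and 56.1 TPM in Huh7 and at 0.134 and 0.153 TPM in HepG2, and its Huh7 levels were above those of all 10 transporters. SLCO1A2 (2.69 and 2.80 TPM in Huh7) was listed at 0 in HepG2, and SLCO4C1 was at 10.7 and 11.6 TPM in Huh7 and at 2.26 and 3.75 TPM in HepG2. In the other direction, SLCO4A1 was listed at 0 in Huh7 and at 10.7 and 9.15 TPM in HepG2, and the carnitine carrier SLC22A5 was at 2.21 and 2.27 TPM in Huh7 and 13.7 and 11.9 TPM in HepG2. In the line with their higher level, SLCO1A2, SLCO4C1 and SLCO4A1 each exceeded the highest TPM of SLCO1B1. SLC10A2, the intestinal counterpart of SLC10A1, was also at 0 throughout and was named after its values were seen.

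Of 13 further efflux genes 12 were tested, with 6 lower and 6 higher in HepG2 and a median of −0.06. Of the 9 with at least 1 TPM in both lines, 6 were lower and 3 higher. SLC51A and SLC51B, which encode the subunits of the basolateral bile acid exporter, were split between the lines. SLC51B was at 23.4 and 18.6 TPM in Huh7 and 2.13 and 2.67 TPM in HepG2, with a log2 difference of −2.69 ± 0.16 (adjusted p = 3.21e-05). SLC51A was at 0 and 0.190 TPM in Huh7 and 1.17 and 2.13 TPM in HepG2. The phospholipid flippase ATP8B1 (11.7 and 14.4 TPM in Huh7, 0.919 and 1.21 TPM in HepG2), its partner TMEM30A (118 and 78.2 TPM, 40.6 and 34.8 TPM) and the cholesterol exporter ABCA1 (15.9 and 19.8 TPM, 1.71 and 2.81 TPM) were lower in HepG2 as well. No gene of these 2 lists passed 2-fold with COP1-siRNA on the log2(TPM + 1) scale. By the plain TPM ratio 1 did, ABCG1 in HepG2, from 0.410 to 1.62 TPM (ratio 3.95, and 0.89 on the log2(TPM + 1) scale), and it was named after its values were seen.

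The known regulators of these transporters were mostly lower in HepG2, with 9 of 12 tested called lower, 3 called higher and a median of −2.23. Of the 11 with at least 1 TPM in both lines, 9 were lower and 2 higher, against 27.7% and 47.1% of all such genes. NR1H4 (FXR) was at 93.2 and 77.3 TPM in Huh7 and 6.11 and 7.57 TPM in HepG2 (log2 difference −3.46 ± 0.14, adjusted p = 9.97e-06). CEBPA, a liver-enriched transcription factor, was at 169 and 122 TPM in Huh7 and 23.7 and 23.7 TPM in HepG2. FOXA2 (80.1 and 61.3 TPM against 2.87 and 2.92 TPM), NR5A2 (33.5 and 27.6 TPM against 1.07 and 1.02 TPM) and AHR (69.5 and 56.2 TPM against 6.79 and 7.53 TPM) had the same direction. NR0B2 (SHP), a repressor that FXR induces in normal liver, went the other way, with 5.80 and 3.01 TPM in Huh7 and 22.5 and 23.8 TPM in HepG2. The xenobiotic receptors NR1I2 (PXR) and NR1I3 (CAR) stayed under 1 TPM in all 4 libraries. NR0B2, NR1I2 and NR1I3 were named after their values were seen. No regulator passed 2-fold with COP1-siRNA. In Huh7 1 of 11 lay above 0 and in HepG2 10 of 12, against 49.9% and 48.3% of all genes tested.

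Proteins that hold or deliver pumps at the canalicular membrane were called lower in HepG2 for 8 of 12 genes and higher for 2, with a median of −0.74. Of the 11 with at least 1 TPM in both lines, 8 were lower and 1 higher, again against 27.7% and 47.1% of all such genes. PDZK1, a scaffold that binds the tails of several transporters, was at 51.4 and 57.1 TPM in Huh7 and 2.51 and 3.62 TPM in HepG2. NHERF1, another scaffold, was at 262 and 231 TPM against 78.4 and 84.2 TPM, and STX3, an apical fusion protein, at 133 and 125 TPM against 19.4 and 21.9 TPM. MARCKS was at 244 and 170 TPM against 88.0 and 67.0 TPM. MSN (moesin), which links membrane proteins to actin, was listed at 0 in Huh7 and at 110 and 104 TPM in HepG2. None of these genes passed 2-fold with COP1-siRNA.

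**Figure D5:**
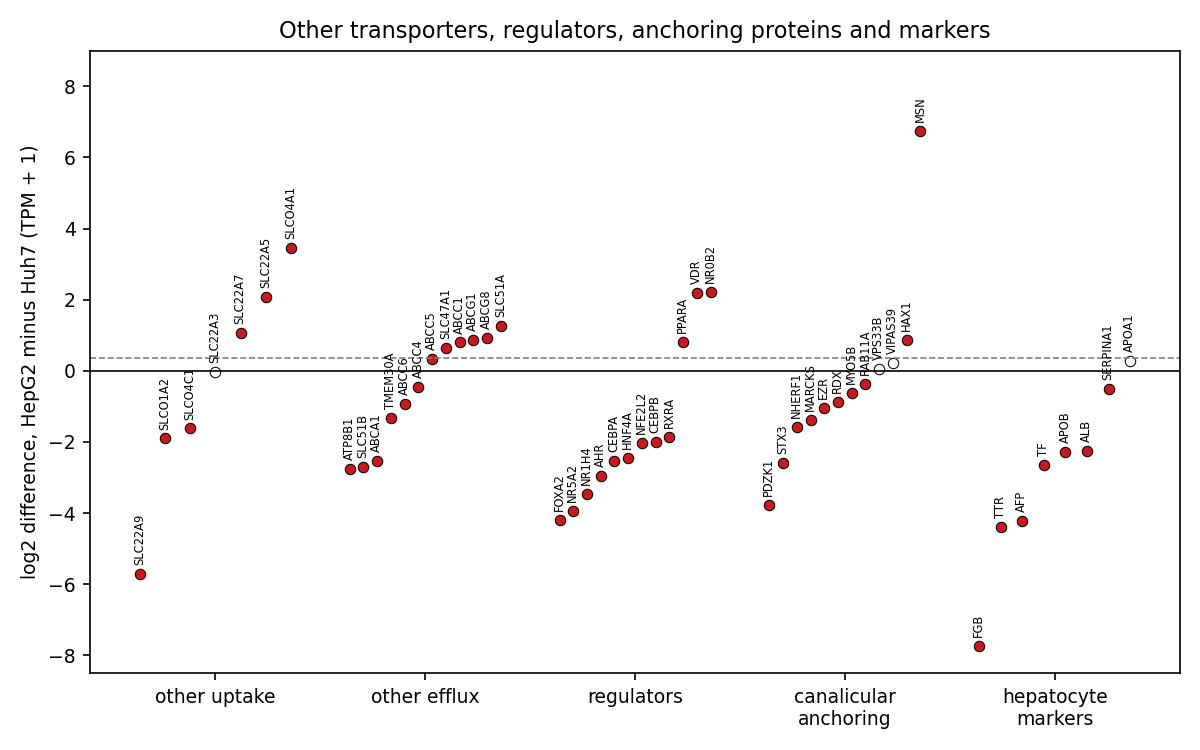
Difference of HepG2 minus Huh7 on the log2(TPM + 1) scale for each tested gene of 5 lists; red points have an adjusted p under 0.05, open points do not, and the dashed line is the median of all genes tested, 0.36. Uptake and efflux genes lie on both sides of 0, whereas 9 of 12 regulators and 7 of 8 hepatocyte markers are red and below it.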

How the data were processed

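RNA of 4 libraries (2 lines, 2 siRNAs, 1 library each) was measured by stranded poly(A) sequencing. The submitters' processing notes list FastQC 0.11.7, Trimmomatic 0.38, HISAT2 2.1.0, StringTie 2.1.3b and edgeR, with GRCh38; the annotation release is not given in the sources used here. For each library the authors deposited a table of TPM and FPKM, normalized for length and library, beside a coverage signal not normalized for depth. The TPM deposited by the authors sum to 1000000 in each library. The tables hold no counts, so the depth is unknown and no interval was computed. Coverage per FPKM (median over genes with at least 1 TPM) was 5.51 and 6.23 in Huh7 and 4.82 and 6.13 in HepG2 with NC-siRNA and COP1-siRNA, and gives relative depth only.

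The tables carry no gene symbols. Genes were matched by NCBI Gene number to RefSeq (GRCh38.p14, 96.3% of 46427 numbers), and repeated numbers (49 to 51 per table) were summed. Changes with COP1-siRNA were log2((TPM + 1)/(TPM + 1)), which understates changes of low genes, for genes with at least 1 TPM in 1 library of the line, with the 2-fold threshold of the study. Its p-values could not be matched, since each condition has 1 library. Lines and siRNAs were tested with limma 3.58.1 (R 4.3.3) on log2(TPM + 1), terms line and siRNA, eBayes with trend, 1 residual degree of freedom per gene and Benjamini-Hochberg adjustment over 15486 genes. No source says that the 2 libraries of a line were separate experiments. The computation was tested on simulated data. Promoters and transcripts were searched with Python 3.11.15, pandas 2.3.3 and Biopython 1.88, using RefSeq and GENCODE 29.

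The transporters and the other lists were chosen with earlier results of these data known. One regulator gene was left out of the lists and is not reported here. The named genes were all 10 transporters, COP1, the cell type markers, genes that overlap a transporter or share its sequence, genes of the lists past 2-fold in a line and up to 5 genes per list with the largest called line difference; others are said to have been named after their values were seen. SLC22A7, ABCC1, ABCC4, ABCC5, ABCC6, ABCG5, ABCG8 and SLC47A1 enter the list counts only. The alternatives were a pseudocount of 0.1, FPKM, median-of-ratios scaling, no minimum and a minimum TPM of 5, repeated numbers kept apart, eBayes without trend and no line in the fit. The plain TPM ratio, and coverage in place of TPM for the changes and calls, were added after the data were seen. The p-values measure only the spread between these libraries, pooled across genes, and that spread may be technical.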

Additional observations from a re-analysis of the deposited data

Results flagged for a closer look

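Of the 6 transporters tested in both lines, 4 had a change with COP1-siRNA of opposite sign in Huh7 and HepG2, as did 39.8% of the 11970 genes tested in both lines. Each line has 1 pair of libraries, so the difference between the lines was not tested. By scaled coverage, ABCB1 and ABCG2 alone of these 6 were opposite. ABCC3 was at −0.09 on the log2(TPM + 1) scale in Huh7 and 0.57 in HepG2, and scaled coverage gave 0.04 and 0.51. ABCB1 was at −0.15 in Huh7 and 0.29 in HepG2. ABCG2 was at −0.18 in Huh7 and 0.51 in HepG2. ABCB4 had the reverse pattern, with 0.13 in Huh7 and −0.20 in HepG2, and scaled coverage gave −0.26 and −0.15, the same sign in both.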

How the results depend on the processing

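No transporter passed 2-fold with COP1-siRNA with another pseudocount, FPKM, other scaling, another minimum TPM, coverage or repeated numbers kept apart. A ratio of TPM with no pseudocount, added after the data were seen, gave 1 in HepG2, SLCO2B1, which has no added 1 to damp it, and 0 in Huh7. Between the lines, 6 transporters were called, of which SLCO1B1, SLCO1B3 and ABCB11 had to differ once they entered the test. A minimum TPM of 5 left 2, with 4 tested instead of 9. Under the other alternatives the count stayed within 1.5 times of 6, but it held the forced calls of SLCO1B1, SLCO1B3 and ABCB11 each time. ABCC3 changed sign with median-of-ratios scaling, to −0.11 (adjusted p = 0.593). Among single transporters 3 calls were gained (ABCB1 and ABCB4 with median-of-ratios scaling, ABCB4 with coverage) and 3 were lost, all of ABCC2. No transporter was called for the siRNA in any setting, and leaving the line out of the fit also gave 0. No fit without 1 library was made, because it leaves no residual degree of freedom. Within the NC-siRNA and the COP1-siRNA libraries alone, HepG2 minus Huh7 was −0.16 and 0.49 for ABCC3, −0.56 and −0.12 for ABCB1, −0.14 and −0.47 for ABCB4, −0.45 and −0.21 for ABCC2, −1.59 and −0.90 for ABCG2, and −1.0 and −0.64 for SLCO2B1. Depth is unknown, so values under 1 TPM, such as those of ABCB11, have no stated precision.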
